A study of Mus musculus with 6 samples.

Results

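Pericyte and mural cell genes are 8 of the 17068 genes in the filtered count matrix: Pdgfrb, Rgs5, Kcnj8, Abcc9, Cspg4, Anpep, Notch3 and Acta2. They were listed by name and matched by gene identifier to the GENCODE M21 annotation. None was picked by a threshold on a measured value, but earlier results of these data were known when the list was made. All 8 had counts in every library. RNA was sequenced from lateral cortex of female c57/bl6 embryos at embryonic day 12.5, with 4 control libraries and 2 libraries labelled Foxp1cKO. Every control lacked Cre and carried a floxed Foxp1 allele: controls 1, 2 and 4 were Foxp1 fl/+ and control 3 was Foxp1 fl/fl. The libraries labelled Foxp1cKO were Foxp1 fl/fl;Emx1Cre. Emx1Cre drives recombination in progenitors of the dorsal telencephalon and in their progeny, so vessel cells are not its target, and a bulk library reads vessel cells and neural cells together. The comparison therefore asks how bulk levels of these genes differed between cortices with Foxp1 targeted in the neural lineage and their controls. Which cells the reads came from was not tested.

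Mural cells wrap the endothelial tube: pericytes sit on capillaries, and smooth muscle cells surround arteries and veins. Endothelial cells recruit pericytes by releasing PDGF-B, which binds the receptor PDGFRβ on the pericyte, and Notch ligands on the endothelium act on NOTCH3 in mural cells. In the forebrain, vessels enter the cortical wall from the perineural plexus during midgestation and pericytes arrive with them.

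Foxp1 itself, the gene that Cre targets, was no lower under the Foxp1cKO label. It stood at 59.7, 60.8, 71.2 and 79.1 CPM (reads per 1e6 counted reads, after TMM normalization) in controls 1 to 4 and at 83.2 and 76.8 CPM in the libraries labelled Foxp1cKO, a log2 fold change of 0.24 (SE 0.13; edgeR's quasi-likelihood test, Benjamini-Hochberg adjusted p = 0.468). The count covers the whole gene, so it does not report on the floxed part alone, and the groups are called by their labels here. Totals were 50076008 to 78346979 counts per library, so 3 counts correspond to 0.0381 to 0.0596 CPM. Cortical identity was present in every library, with Emx1 at 68.8 to 135 CPM, Pax6 at 171 to 245 CPM and Tbr1 at 251 to 490 CPM. Red cell genes summed to 1115, 1167 and 1473 CPM in controls 2, 3 and 1, to 3615 CPM in control 4, and to 3909 and 4200 CPM in the libraries labelled Foxp1cKO. Control 4 thus stood with the libraries labelled Foxp1cKO in this sum.

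No member passed the threshold of an adjusted p under 0.05 (edgeR's quasi-likelihood test over all genes), which 0.152% of all genes passed. Rgs5, Abcc9, Cspg4 and Notch3 were higher in both libraries labelled Foxp1cKO than in every control. That is 4 of 8 members, beside 11.5% of all genes. The same 4 had an unadjusted p under 0.05 with a higher level, beside 6.53% of all genes. With each library left out in turn, Rgs5 had an unadjusted p under 0.05 in each of the 6 fits, at log2 fold changes of 0.57 to 0.68. Abcc9 lost it without Foxp1cKO 2, Cspg4 without control 1, control 3 or Foxp1cKO 2, and Notch3 without control 1, control 2 or either library labelled Foxp1cKO. Their log2 fold changes over the 6 fits were 0.39 to 0.55 for Abcc9, 0.44 to 0.67 for Cspg4 and 0.28 to 0.44 for Notch3. Where 1 library labelled Foxp1cKO was left out, the spread came from the controls alone, and the lone library was assumed to vary like them. DESeq2's Wald test called 1 of 8 members, Rgs5, beside 3.36% of the genes to which it gave an adjusted p. In the counts of further lists, called means an adjusted p under 0.05 by edgeR unless DESeq2 is named. A count there at an unadjusted p under 0.05 without a stated direction covers both directions, beside 13% of all genes.

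The sequence before the start of these 4 genes is shown because they are the members whose groups did not overlap. The bases come from RefSeq on GRCm38.p6, read 5′ to 3′ along the gene and ending before the first annotated start. Capitals mark matches on either strand to 3 short motifs. These are the hypoxia response element core in both its forms, ACGTG and GCGTG, and the core of the Notch effector RBPJ, TGGGAA.
Rgs5, chr1:169655251-169655500, plus strand: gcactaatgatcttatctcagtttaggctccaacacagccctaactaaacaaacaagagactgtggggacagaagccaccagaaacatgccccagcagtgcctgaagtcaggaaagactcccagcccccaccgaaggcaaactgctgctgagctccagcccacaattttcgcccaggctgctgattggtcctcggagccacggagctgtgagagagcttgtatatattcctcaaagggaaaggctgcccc
Abcc9, chr6:142702316-142702524, minus strand: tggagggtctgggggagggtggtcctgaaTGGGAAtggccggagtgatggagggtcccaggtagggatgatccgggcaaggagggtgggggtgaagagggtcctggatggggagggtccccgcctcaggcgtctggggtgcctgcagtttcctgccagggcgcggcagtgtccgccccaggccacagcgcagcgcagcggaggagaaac
Cspg4, chr9:56864854-56865032, plus strand: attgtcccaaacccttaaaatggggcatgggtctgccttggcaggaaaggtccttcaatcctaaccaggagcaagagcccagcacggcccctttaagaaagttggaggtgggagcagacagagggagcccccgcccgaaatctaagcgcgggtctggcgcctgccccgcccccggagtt
Notch3, chr17:32166891-32167140, minus strand: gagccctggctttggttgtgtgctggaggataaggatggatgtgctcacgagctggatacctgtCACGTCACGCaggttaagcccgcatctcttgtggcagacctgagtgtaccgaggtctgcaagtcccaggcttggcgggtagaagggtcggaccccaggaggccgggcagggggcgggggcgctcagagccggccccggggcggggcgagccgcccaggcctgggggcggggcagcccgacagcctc
Rgs5 and Cspg4 held none of the 3 motifs in the 250 bases before the RefSeq start. Abcc9 held TGGGAA, beginning 221 bases before that start. Notch3 held ACGTG and GCGTG, both on the opposite strand and next to each other, 186 and 181 bases before it. RefSeq windows were found for 7 of 8 members. Among the other windows, Kcnj8 and Anpep each held 1 GCGTG and Acta2 held 1 TGGGAA. Of 32841 promoter windows of the same length, 16.6% held ACGTG, 28.2% held GCGTG and 21.6% held TGGGAA, so such matches are common.

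Levels of different members were compared as CPM per kb of exon. In the controls, Notch3 had a mean of 16.7 CPM per kb and Rgs5 of 6.96 CPM per kb. Pdgfrb followed at 3.67, Abcc9 at 2.26 and Kcnj8 at 1.3 CPM per kb. Anpep had 0.706, Acta2 0.458 and Cspg4 0.423 CPM per kb. Each of Notch3, Rgs5, Pdgfrb and Abcc9 lay above the next gene without overlap among the controls, and their order was the same in all 6 libraries. Kcnj8 and Anpep overlapped across the controls, as did Anpep and Acta2, and Acta2 and Cspg4, so the order of the lower 4 is not fixed by these libraries. Acta2 ranked 8 of 8 in controls 1, 2 and 3, but 5 of 8 in control 4 and in Foxp1cKO 2. Notch3 exceeded 80.1% of all genes by this measure and Cspg4 18.7%.

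**Figure D1:**
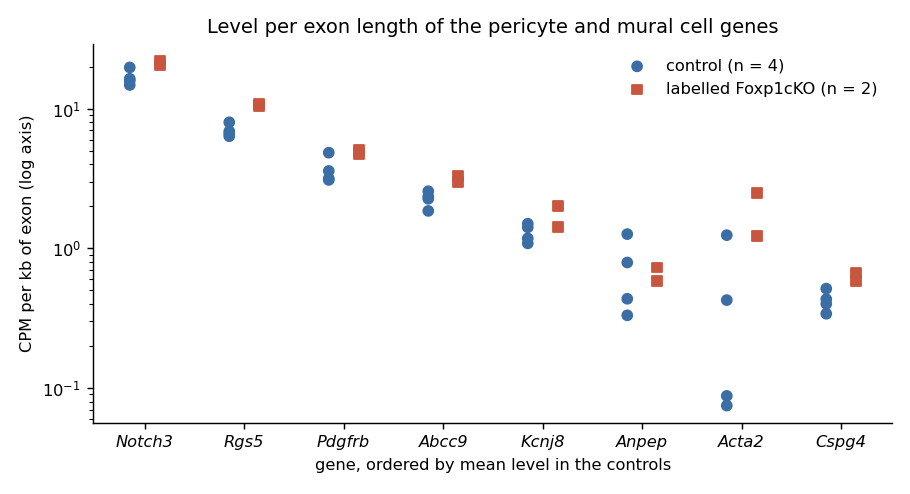
CPM per kb of exon (log axis) of the 8 members, ordered by their mean in the controls, with a circle for each of 4 controls and a square for each of 2 libraries labelled Foxp1cKO. Notch3 lies highest, at 14.8 to 21.9 CPM per kb, and the points of Acta2 spread from 0.0750 to 2.47 CPM per kb.

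Pdgfrb encodes the PDGF receptor through which pericytes are recruited. The gene (ENSMUSG00000024620.11) lies on chromosome 18, 61045150 to 61085061, on the plus strand (GRCm38). It was at 26.5, 19.6, 17.3 and 16.9 CPM in controls 1 to 4 and at 25.9 and 27.7 CPM in the libraries labelled Foxp1cKO. Control 1 lay between the libraries labelled Foxp1cKO and the other 3 controls lay below both, so the groups overlapped. The means were 20.1 ± 4.44 CPM (SD, n = 4) and 26.8 ± 1.33 CPM (SD, n = 2), a log2 fold change of 0.42 (SE 0.19; edgeR's quasi-likelihood test, adjusted p = 0.408).

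The ligand Pdgfb, made mainly by endothelial cells in the brain, shared its highest libraries with Pdgfrb but not the order of controls 2 to 4. It was at 9.19, 6.76, 6.22 and 7.67 CPM in the controls and at 9.04 and 9.32 CPM in the libraries labelled Foxp1cKO. Control 1 again reached the libraries labelled Foxp1cKO, and the log2 fold change was 0.30 (SE 0.19; edgeR adjusted p = 0.525). Among the 6 other PDGF ligands and receptors of the list, all had values, none was called by edgeR or DESeq2, 0 had an unadjusted p under 0.05 by edgeR, 4 had a log2 fold change above 0 and 2 below, and the median was 0.16. Pdgfd, another ligand of this receptor, had the highest value of the list at 0.61 (SE 0.38; adjusted p = 0.529). It was at 0.710, 0.789, 0.809 and 1.64 CPM in the controls and at 1.57 and 1.45 CPM in the libraries labelled Foxp1cKO, so control 4 exceeded both. Pdgfa, a ligand of the related receptor PDGFRα, had a log2 fold change of 0.12 (SE 0.19). Pdgfra, the gene of that receptor and a marker of fibroblasts and oligodendrocyte precursors, had −0.26 (SE 0.43).

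Notch3 encodes a Notch receptor of mural cells. It lies on chromosome 17, 32120820 to 32166852, on the minus strand (ENSMUSG00000038146.7), and the antisense gene Gm17276 overlaps it. The strand setting of the counting is not given in the sources used here, so reads of the pair may not be separable. Notch3 was at 132, 128, 120 and 160 CPM in controls 1 to 4 and at 177 and 167 CPM in the libraries labelled Foxp1cKO. The groups did not overlap, but the lower library labelled Foxp1cKO was only 1.05 times control 4. The means were 135 ± 17.3 CPM (SD, n = 4) and 172 ± 6.90 CPM (SD, n = 2), a log2 fold change of 0.35 (SE 0.12; edgeR's quasi-likelihood test, adjusted p = 0.316).

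Of the 15 other Notch ligands, receptors and effectors, 9 had a log2 fold change above 0 and 6 below, with a median of 0.03, and none was called by edgeR. DESeq2 called Dll4 and Notch1, the 2 that had an unadjusted p under 0.05 by edgeR. Dll4, a ligand of arterial and tip endothelial cells, was at 5.01, 5.87, 4.80 and 5.02 CPM in the controls and at 8.01 and 7.36 CPM in the libraries labelled Foxp1cKO. Its groups did not overlap, and its log2 fold change was 0.57 (SE 0.15; edgeR adjusted p = 0.266; DESeq2 adjusted p = 0.0173). Notch1, a receptor of both endothelial cells and cortical progenitors, was at 288, 314, 310 and 318 CPM in the controls and at 441 and 402 CPM in the libraries labelled Foxp1cKO. The log2 fold change of Notch1 was 0.46 (SE 0.08; edgeR adjusted p = 0.152; DESeq2 adjusted p = 9.16e-05), larger than its spread between controls. Jag1, a ligand that mural cells share with endothelial cells and progenitors, had 0.35 (SE 0.17), and its groups overlapped because control 3 (45.8 CPM) exceeded Foxp1cKO 2 (41.9 CPM). Hey2, a Notch target of arteries, had the lowest value of the list, −0.35 (SE 0.54). Whether any of these transcripts came from vessels or from neural progenitors was not tested.

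Rgs5 encodes a regulator of G protein signaling that is widely used to mark pericytes. It lies on chromosome 1, 169655501 to 169695813, on the plus strand (ENSMUSG00000026678.10). Rgs5 was at 31.3, 36.3, 30.1 and 28.9 CPM in controls 1 to 4 and at 49.3 and 47.3 CPM in the libraries labelled Foxp1cKO. The lower of those 2 libraries was 1.3 times the highest control, the widest gap among the members. The means were 31.6 ± 3.28 CPM (SD, n = 4) and 48.3 ± 1.35 CPM (SD, n = 2). The log2 fold change was 0.61 (SE 0.11), with an adjusted p = 0.161 by edgeR's quasi-likelihood test. Rgs5 ranked 72 of all genes by p, and it was the member called by DESeq2 (adjusted p = 0.000697). In bulk RNA, fewer mural cells and less of the transcript per cell cannot be told apart, nor can more cells and more transcript.

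Of 17 further RGS genes, 15 had values: 9 were above 0, 6 were below, and the median log2 fold change was 0.28. None was called by edgeR, and DESeq2 called 1, Rgs11. By edgeR 6 had an unadjusted p under 0.05, 4 higher and 2 lower, beside 13% of all genes in either direction. The highest was Rgs11, at 0.323, 0.290, 0.412 and 0.419 CPM in the controls and at 1.21 and 2.25 CPM in the libraries labelled Foxp1cKO. Its log2 fold change was 2.26 (SE 0.32; edgeR adjusted p = 0.0758; DESeq2 adjusted p = 4.32e-05). The lowest was Rgs19 with −0.34 (SE 0.13; edgeR adjusted p = 0.350).

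**Figure D2:**
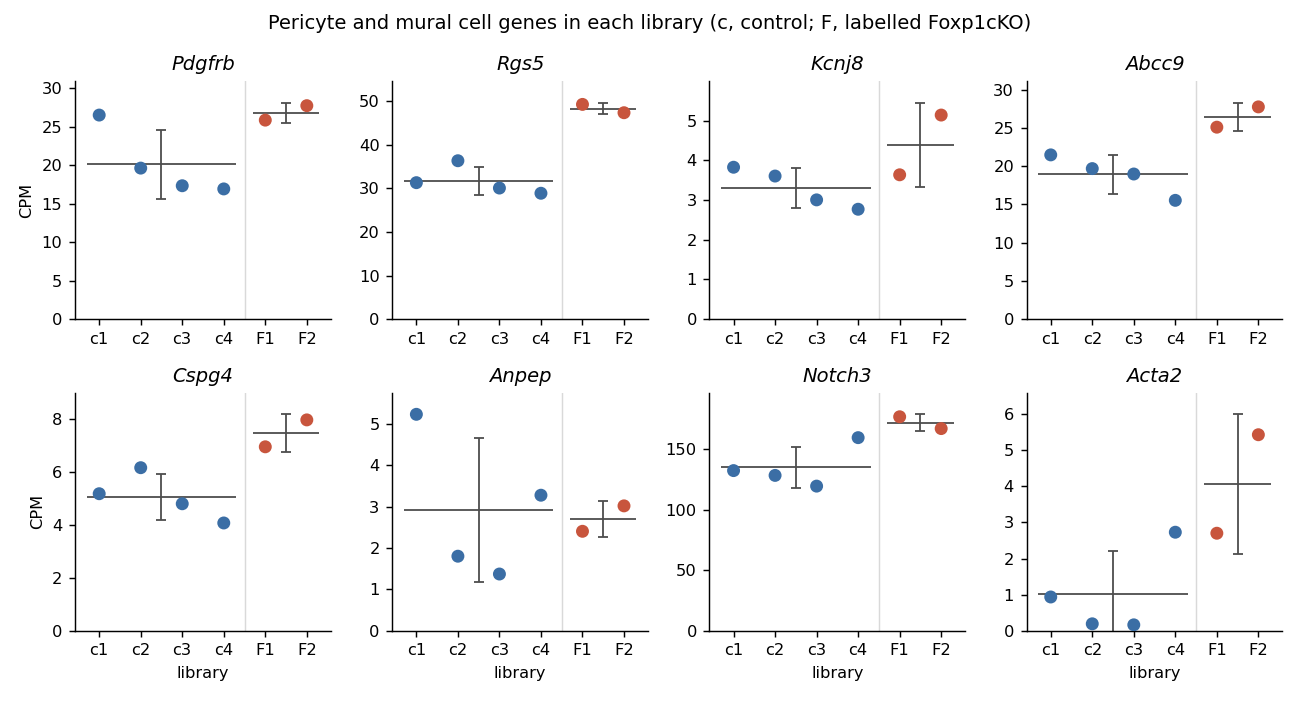
CPM of each member in each library (y axes start at 0; c, control; F, labelled Foxp1cKO), with a line at each group's mean and a bar of 1 SD, cut at 0 for Acta2 (n = 4 and n = 2). Rgs5, Abcc9, Cspg4 and Notch3 have both F points above all c points, while the points of Pdgfrb, Kcnj8, Anpep and Acta2 overlap.

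Kcnj8 and Abcc9 encode the pore (Kir6.1) and the sulfonylurea receptor (SUR2) of the ATP-sensitive potassium channel of vascular mural cells. They are neighbours on the minus strand of chromosome 6, Kcnj8 at 142564837 to 142571614 (ENSMUSG00000030247.9) and Abcc9 at 142587862 to 142702315 (ENSMUSG00000030249.15), with 16247 bases between them. Abcc9 was at 21.5, 19.7, 19.0 and 15.5 CPM in controls 1 to 4 and at 25.1 and 27.7 CPM in the libraries labelled Foxp1cKO. Both of those exceeded every control, the lower by 1.17 times. The means were 18.9 ± 2.49 CPM (SD, n = 4) and 26.4 ± 1.88 CPM (SD, n = 2), and the log2 fold change was 0.48 (SE 0.14; edgeR's quasi-likelihood test, adjusted p = 0.279; DESeq2 adjusted p = 0.0801). The antisense gene 5330439B14Rik overlaps Abcc9, so its reads may be shared.

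Kcnj8 was at 3.83, 3.60, 3.00 and 2.77 CPM in the controls and at 3.64 and 5.14 CPM in the libraries labelled Foxp1cKO. Foxp1cKO 1 lay below control 1, so the groups overlapped, and the pair of libraries labelled Foxp1cKO differed by 1.41 times. These values rest on 183 to 390 reads per library. The means were 3.3 ± 0.497 CPM (SD, n = 4) and 4.39 ± 1.06 CPM (SD, n = 2), a log2 fold change of 0.41 (SE 0.23; edgeR's quasi-likelihood test, adjusted p = 0.480). Per kb of exon, Kcnj8 was 0.586, 0.602, 0.520 and 0.586 times Abcc9 in the controls and 0.476 and 0.609 times in the libraries labelled Foxp1cKO. The ratio in Foxp1cKO 1 was below all controls. That in Foxp1cKO 2 (0.609) exceeded control 2 (0.602) by less than the counting error of Kcnj8, which was 6.68% in the controls.

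The subunits of the neuronal and endocrine form of the channel, Kcnj11 (Kir6.2) and Abcc8 (SUR1), had the other sign. Kcnj11 was at 10.3, 9.35, 9.23 and 4.99 CPM in the controls and at 5.03 and 8.04 CPM in the libraries labelled Foxp1cKO. Abcc8 was at 19.8, 15, 15.5 and 6.04 CPM in the controls and at 8.29 and 11.1 CPM in the libraries labelled Foxp1cKO. Control 4 was the lowest library for both. The log2 fold changes were −0.37 (SE 0.33; edgeR adjusted p = 0.659) and −0.54 (SE 0.43; edgeR adjusted p = 0.617), so neither of the 2 was called by edgeR, nor by DESeq2, and the median was −0.46. Abcc9 per kb was 1.05, 1.27, 1.18 and 2.48 times Abcc8 in the controls and 2.93 and 2.42 times in the libraries labelled Foxp1cKO. Control 4 therefore lay between the libraries labelled Foxp1cKO in this ratio, apart from the other 3 controls.

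Cspg4 encodes NG2, a proteoglycan on the surface of pericytes and of oligodendrocyte precursors. It lies on chromosome 9, 56865033 to 56899870, on the plus strand (ENSMUSG00000032911.6). Cspg4 was at 5.17, 6.15, 4.79 and 4.06 CPM in controls 1 to 4 and at 6.93 and 7.95 CPM in the libraries labelled Foxp1cKO. Both exceeded every control, the lower by 1.13 times. The means were 5.04 ± 0.868 CPM (SD, n = 4) and 7.44 ± 0.717 CPM (SD, n = 2), a log2 fold change of 0.56 (SE 0.20; edgeR's quasi-likelihood test, adjusted p = 0.328). Oligodendrocyte precursor markers had values for 6 of 7 genes, of which 4 were above 0 and 2 below, and the median log2 fold change was 0.24. None was called by edgeR or DESeq2, and 0 had an unadjusted p under 0.05 by edgeR. Their summed level was 25.6 to 41.2 CPM in the controls and 30.8 to 37.7 CPM in the libraries labelled Foxp1cKO, so the groups overlapped. How much of the Cspg4 signal came from oligodendrocyte precursors was not tested. Olig1 was at 0.291 to 1.28 CPM in the controls.

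Anpep encodes CD13, an aminopeptidase of pericytes that fibroblasts and myeloid cells also carry. It lies on chromosome 7, 79821803 to 79861059, on the minus strand (ENSMUSG00000039062.15), where the gene Gm44974 overlaps it on the same strand. Anpep was at 5.23, 1.80, 1.37 and 3.28 CPM in controls 1 to 4 and at 2.40 and 3.02 CPM in the libraries labelled Foxp1cKO. Both of those lay inside the range of the controls, which spanned 3.81 times. The means were 2.92 ± 1.74 CPM (SD, n = 4) and 2.71 ± 0.435 CPM (SD, n = 2), and the log2 fold change was −0.10 (SE 0.52; edgeR's quasi-likelihood test, adjusted p = 0.955). It was 0.32 without control 1 and 0.049 without Foxp1cKO 1, so the sign changed with 1 library.

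The order of the controls in Anpep was that of meningeal and fibroblast genes. Their 16 measured markers, none at 0 in any library, summed to 759, 266, 159 and 502 CPM in controls 1 to 4 and to 239 and 464 CPM in the libraries labelled Foxp1cKO. Col1a1, the fibrillar collagen of fibroblasts, was at 94.4, 20.7, 13.0 and 54.3 CPM in the controls and at 16.7 and 49.9 CPM in the libraries labelled Foxp1cKO. Controls 1 and 4 were the 2 highest controls for Anpep, the list sum and Col1a1 alike. Of the 16 genes, 2 were above 0 and 14 below in log2 fold change, and the median was −0.18. None was called by edgeR or DESeq2, and 0 had an unadjusted p under 0.05 by edgeR. The lowest was Ogn, a small proteoglycan, with −0.97 (SE 0.88). How much of the Anpep signal came from meningeal tissue was not tested.

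Acta2 encodes smooth muscle α-actin, which marks arterial smooth muscle and is low in most capillary pericytes. It lies on chromosome 19, 34241090 to 34255590, on the minus strand (ENSMUSG00000035783.8). Its coding sequence is close to that of other actins. The study used uniquely mapped reads, so reads that match several actins may be missing from the count. Acta2 was at 0.936, 0.193, 0.165 and 2.73 CPM in controls 1 to 4 and at 2.70 and 5.43 CPM in the libraries labelled Foxp1cKO. Control 4 equalled Foxp1cKO 1 within counting error, with 95% exact Poisson intervals of 2.38 to 3.12 and 2.27 to 3.20 CPM, which cover counting error only. The controls spanned 16.6 times, from 12 reads in controls 2 and 3 to 215 reads in control 4. The means were 1.01 ± 1.20 CPM (SD, n = 4) and 4.07 ± 1.93 CPM (SD, n = 2), and the log2 fold change was 2.00 (SE 0.99; edgeR's quasi-likelihood test, adjusted p = 0.438). It was 3.25 without control 4 and 1.41 without Foxp1cKO 2. Control 4 and the libraries labelled Foxp1cKO were also the 3 highest libraries for the sum of the 10 red cell markers, none of which was at 0. The log2 fold change was above 0 for 9 of the 10 and below 0 for Hbb-bs. That gene was highest in control 1, at 109 CPM, beside 70.5 and 76.6 CPM in the libraries labelled Foxp1cKO. The part of the red cell level in the Acta2 values was not tested.

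Of the other contractile genes of smooth muscle, 13 of 17 had values: 9 were above 0, 4 below, and the median log2 fold change was 0.10. None was called by edgeR or DESeq2, and 2 had an unadjusted p under 0.05 by edgeR. Myh11, the smooth muscle myosin heavy chain, was at 0.468, 0.193, 0.384 and 0.394 CPM in the controls and at 0.517 and 0.870 CPM in the libraries labelled Foxp1cKO, with a log2 fold change of 0.95 (SE 0.40; edgeR adjusted p = 0.382). Tagln, the actin-binding protein SM22, had 0.89 (SE 0.60) and overlapped, with controls 1 and 4 at 2.00 and 1.78 CPM and Foxp1cKO 1 at 1.55 CPM. Myl9, a myosin light chain, had 0.37 (SE 0.22) and Itga8, an integrin subunit, had −0.33 (SE 0.19), the lowest of the list. Among 5 other actin genes, 4 had values, 2 above 0 and 2 below, with a median of −0.0015, none called by edgeR or DESeq2 and 1 at an unadjusted p under 0.05. Actg2, the enteric smooth muscle actin, had 0.87 (SE 0.29; edgeR adjusted p = 0.313), and Actb, the cytoplasmic β-actin, had −0.10 (SE 0.13).

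The members varied to different degrees among the controls. The coefficient of variation was 10.4% for Rgs5, 12.8% for Notch3, 13.2% for Abcc9, 15% for Kcnj8, 17.2% for Cspg4 and 22.1% for Pdgfrb. It was 59.7% for Anpep and 119.6% for Acta2. Counting alone would give 1.05% for Notch3 to 21.7% for Acta2. Control 4 was the lowest of all libraries for Pdgfrb, Rgs5, Kcnj8, Abcc9 and Cspg4, and control 3 for Anpep, Notch3 and Acta2. Foxp1cKO 2 was the highest of all libraries for 5 members and Foxp1cKO 1 for 2, Rgs5 and Notch3. Control 1 was the highest for Anpep.

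The median log2 fold change of the 8 members was 0.45, beside −0.0044 over all genes, and 7 of 8 were above 0, beside 49.3% of all genes. Taken library against library, the members' median log2 difference was 0.32, 0.40, 0.57 and 0.50 for Foxp1cKO 1 over controls 1 to 4. For Foxp1cKO 2 it was 0.40, 0.50, 0.70 and 0.77. All 8 medians were above 0, and the smallest were those against control 1. Leaving out a library can only keep or raise the count of members above all controls. It was 4 of 8 without control 2, control 3 or Foxp1cKO 2, beside 12.9%, 18.1% and 22.4% of all genes. It was 5 without control 4 (19.3%), 6 without control 1 (13.1%) and 7 without Foxp1cKO 1 (20.1%).

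**Figure D3:**
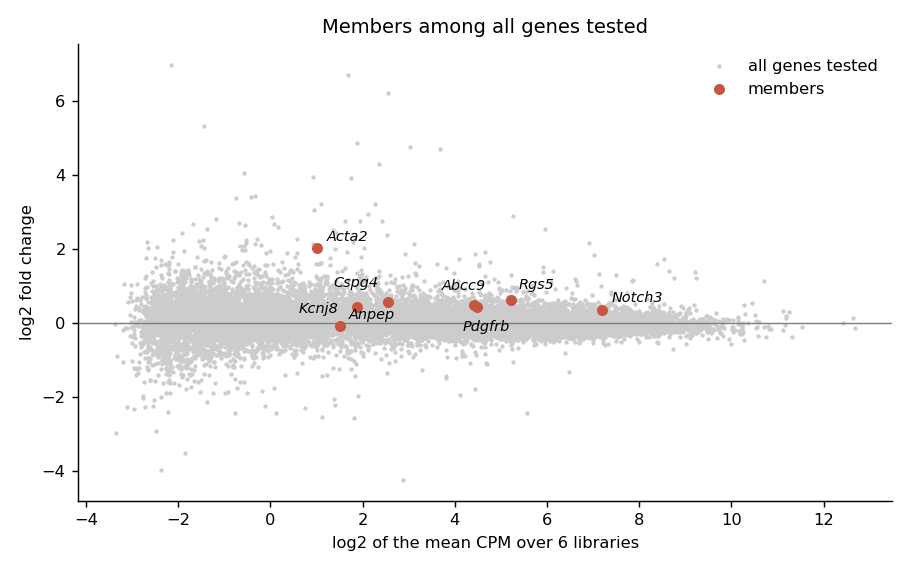
Log2 fold change of each gene (labelled Foxp1cKO over controls) against the log2 of its mean CPM over 6 libraries, with all 17068 genes in gray and the members in red. Of the 8 members 7 lie above 0, from 0.35 for Notch3 to 2.00 for Acta2, and Anpep lies at −0.10.

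Other pericyte genes were mostly higher as well, in a list also made with earlier results of these data known. Ndufa4l2 and Rgs4 of this list were already among the upregulated genes that the study reported from these libraries. The shares below are therefore descriptions, not independent support. Of 23 listed genes 21 had values: 18 were above 0 and 3 below, the median log2 fold change was 0.25, and 7 of 21 did not overlap, beside 11.5% of all genes. None was called by edgeR, DESeq2 called 2 (Ndufa4l2 and Cox4i2), and 5 of 21 had an unadjusted p under 0.05 with a higher level, beside 6.53% of all genes. Ndufa4l2, a mitochondrial protein that marks brain pericytes and is induced by hypoxia, was at 1.42, 1.42, 0.974 and 1.68 CPM in the controls and at 4.39 and 4.86 CPM in the libraries labelled Foxp1cKO. Its log2 fold change was 1.75 (SE 0.24; edgeR adjusted p = 0.0747; DESeq2 adjusted p = 3.44e-08). Cox4i2, the hypoxia-responsive isoform of a cytochrome c oxidase subunit, was named after its values were seen. It was at 0.630, 0.563, 0.851 and 0.762 CPM in the controls and at 2.21 and 2.15 CPM in the libraries labelled Foxp1cKO, a log2 fold change of 1.63 (SE 0.24; edgeR adjusted p = 0.0817; DESeq2 adjusted p = 2.18e-05). Without control 4, Ndufa4l2 passed the threshold of edgeR's test (adjusted p = 0.044). The log2 fold changes of Ndufa4l2 and Cox4i2 were larger than that of any member but Acta2. Vtn, vitronectin, was at 20.0, 9.30, 6.49 and 12 CPM in the controls and at 11.9 and 23.6 CPM in the libraries labelled Foxp1cKO, with 0.57 (SE 0.45). Tbx18, a transcription factor of mural cells and meningeal fibroblasts, had −0.33 (SE 0.66) and was highest in control 1, at 15.5 CPM.

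Signals that pass between endothelium and mural cells held 1 gene called by edgeR. Among the angiopoietin and Tie genes, 4 of 5 had values, 1 above 0 and 3 below, with a median of −0.16. Angpt2, a ligand that loosens the contact of pericytes with endothelium, was that gene, and also the 1 that DESeq2 called. It was at 1.63, 1.35, 1.95 and 2.44 CPM in the controls and rose to 14.3 and 10.7 CPM in the libraries labelled Foxp1cKO, a log2 fold change of 2.76 (SE 0.25; edgeR's quasi-likelihood test, adjusted p = 0.0171). The call was lost without control 1, control 2 or either library labelled Foxp1cKO, where the edgeR adjusted p was 0.0763 to 0.131. Its receptor Tek (TIE2) had −0.35 (SE 0.32). Of 17 genes of TGF-β and sphingosine signaling, 13 were above 0, 4 below, and the median was 0.12. None was called by edgeR or DESeq2, and 2 had an unadjusted p under 0.05 by edgeR. Tgfb2 was the highest with 0.80 (SE 0.50) and Tgfb3, another ligand, the lowest with −0.25 (SE 0.30). Mural transcription factors had values for 12 of 13 genes, 10 above 0 and 2 below, with a median of 0.14, none called by edgeR or DESeq2 and 0 at an unadjusted p under 0.05. The highest of these was Ebf1 with 0.46 (SE 0.56), a factor that striatal neurons also express. Ebf1, Tbx18, Heyl and further genes of this list also stand among the other pericyte genes above. The counts of those lists are therefore not independent of each other.

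**Figure D4:**
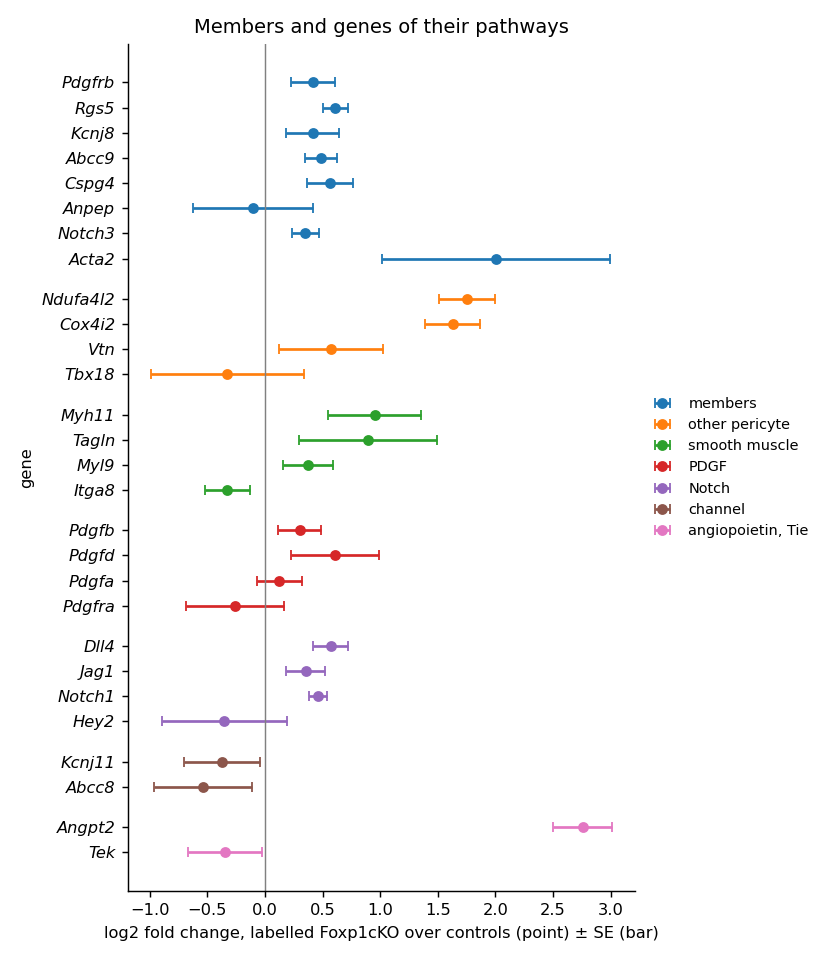
Log2 fold change (labelled Foxp1cKO over controls) with SE bars derived from edgeR's test, for the 8 members and 20 genes of their pathways, colored by list. The SE bars of 7 members lie to the right of 0, that of Anpep crosses 0, and Angpt2 lies farthest right at 2.76.

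Other cells of the vessel and of the sampled tissue are given beside the members. The members' summed level was 227, 216, 195 and 234 CPM in controls 1 to 4 and 293 and 292 CPM in the libraries labelled Foxp1cKO. Notch3 alone held 132, 128, 120 and 160 CPM of it in the controls and 177 and 167 CPM in the libraries labelled Foxp1cKO. The sum is therefore mostly Notch3, and which cells the Notch3 reads came from was not tested. The 18 endothelial markers summed to 329, 229, 217 and 263 CPM in the controls and to 284 and 349 CPM in the libraries labelled Foxp1cKO, so they overlapped. Of these, 12 were above 0 and 6 below, with a median of 0.08. Both Flt1 and Pecam1 were called by DESeq2, and 1 of them, Flt1, by edgeR. Flt1, a VEGF receptor, was at 18.1, 15.4, 12.5 and 17.4 CPM in the controls and at 44.6 and 54.2 CPM in the libraries labelled Foxp1cKO, and it rose by a log2 fold change of 1.64 (SE 0.16; edgeR's quasi-likelihood test, adjusted p = 0.0179). That call was lost without the same libraries as for Angpt2, where the edgeR adjusted p was 0.0706 to 0.192. Pecam1, a junction protein of all endothelium, had 0.65 (SE 0.17; edgeR adjusted p = 0.251; DESeq2 adjusted p = 0.0281). Mfsd2a, a lipid transporter of the blood-brain barrier, had −0.37 (SE 0.11; edgeR adjusted p = 0.289), the lowest of the list.

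Vascular basement membrane genes, which both cell types secrete, were above 0 in 13 of 14 with a median of 0.30, and 2 of 14 did not overlap. They summed to 910 to 1628 CPM in the controls and to 1466 and 1622 CPM in the libraries labelled Foxp1cKO. Microglia and macrophage markers were above 0 in 11 of 14 with a median of 0.35, at 34.2 to 65.7 CPM in the controls and 58.0 to 65.2 CPM in the libraries labelled Foxp1cKO. Of these, 6 of 14 were higher in both libraries labelled Foxp1cKO than in every control, beside 11.5% of all genes, and 5 of 14 had an unadjusted p under 0.05 with a higher level, beside 6.53%. Red cell markers were above 0 in 9 of 10 with a median of 1.06. Here 4 of 10 were above every control and 3 of 10 had an unadjusted p under 0.05 with a higher level, so other cell types also had shares above the background. Endothelial markers had 2 of 18 for each count. Cortical radial glia markers were above 0 in 7 of 11 with a median of 0.10, and cortical neuron markers in 3 of 9 with a median of −0.20. In these 5 lists edgeR called none, and DESeq2 called 1 gene, the red cell gene Hba-a1. At an unadjusted p under 0.05 by edgeR there were 0 of 14 basement membrane genes and 0 of 9 neuron markers. Of the 11 radial glia markers there were 2, 1 higher and 1 lower, beside 13% of all genes in either direction. None of the endothelial, basement membrane, microglia or red cell markers was at 0 in any library. Their part in the members' values was not tested.

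**Figure D5:**
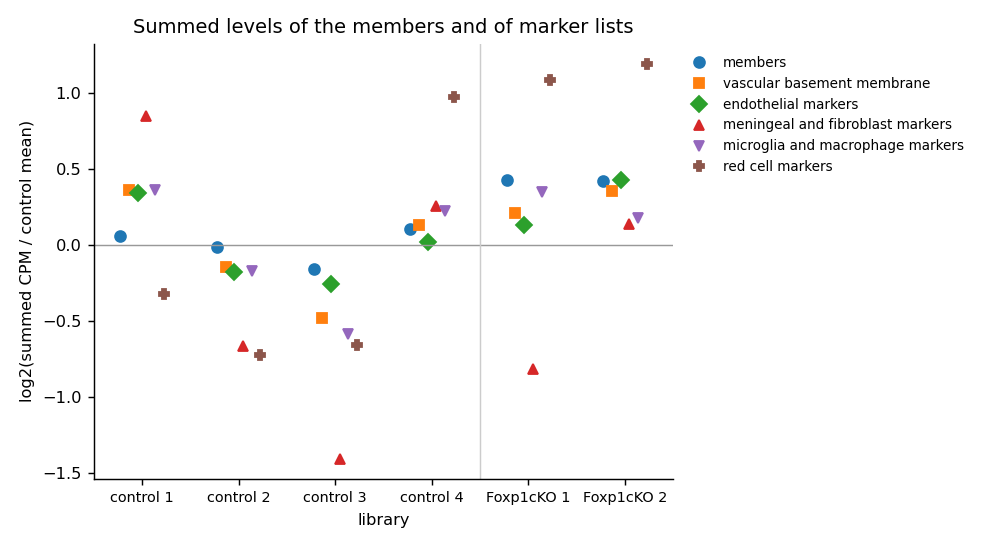
Summed CPM of the members and of 5 marker lists in each library, as log2 of the ratio to the mean of the 4 controls. Notch3 makes up most of the members' sum. The 2 highest points of the members are those of the libraries labelled Foxp1cKO, meningeal markers range most widely among the controls, and red cell markers are high in control 4 and in both libraries labelled Foxp1cKO.

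The genes whose pattern over the 6 libraries was most like the mean of the members were Apoe (Pearson r 0.997), Lpp (0.995), Sema3g (0.993), Tbl2 (0.990) and Tfpi (0.990), among 13847 genes of at least 1 CPM. This mean was taken over log2 CPM not scaled to the spread of each member. Members that varied most therefore weighed most in it, namely Acta2 (0.165 to 5.43 CPM) and Anpep (1.37 to 5.23 CPM). Likeness to the mean is thus not likeness to each member. Apoe, an apolipoprotein, was at 28.2, 18.4, 15 and 25.9 CPM in the controls and at 33.0 and 40.2 CPM in the libraries labelled Foxp1cKO. Lpp is a protein of focal adhesions in smooth muscle. The gene most like Pdgfrb was Lmna (0.993), that most like Kcnj8 was Snhg18 (0.963), and that most like Abcc9 was Cers3 (0.983). The closest to Notch3 was Aebp2 (0.997), and to Rgs5 Zfp51 (0.992), with Dll4 (0.989) next. Anpep was nearest to Pld4 (0.994) and Stab1 (0.992), and Acta2 to Gja5 (0.996), a connexin of arterial endothelium. All points come from the same 6 libraries, whose depth and tissue makeup they share, and with so many genes high values arise readily, so these are descriptions. Over the controls alone, 1 of the 5 genes for the mean, Apoe, and 1 of the 3 for Pdgfrb, Lmna, were again among the closest, and 0 of the 3 for each other member.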

How the data were processed

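RNA was extracted from E12.5 lateral cortex, and libraries were made with a stranded TruSeq kit and sequenced in pairs. The authors aligned the reads with STAR to mm10, counted them on genes with HTSeq 0.9.1 in union mode and dropped genes with low counts. The strand setting is not given in the sources used here. The deposited counts are whole and not normalized; a deposited table of variance-stabilized values was not used. Conditions and replicate numbers came from the labels. The labels give no litter, so the litter term of the study's DESeq2 model was not used.

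Counts of all 17068 genes were tested in R 4.3.3 with edgeR 4.0.16 (glmQLFit and glmQLFTest, TMM, group alone, Benjamini-Hochberg adjusted p under 0.05, prior count 2 for log2 CPM). The quasi-likelihood test gives no SE. The SE printed here is the absolute log2 fold change divided by the square root of the test's F statistic. DESeq2 1.42.0 was an alternative. Scripts were tested on simulated counts. With 4 against 2 libraries an exact permutation test cannot go below p = 0.133 (two-sided), so none was used. The study lists its sequenced samples as 4 control and 2 Foxp1cKO females, though the labels do not name the embryos. The p-values measure only the spread between these libraries. Totals and counting error are given with the results.

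Gene names, positions and exon lengths came from GENCODE M21 (GRCm38, the assembly of mm10; another release than the authors'), where 17047 identifiers matched and 21 did not. CPM per kb divided by the union of exons. Promoters came from RefSeq (GRCm38.p6).

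Members and lists were chosen with earlier results of these data known. Some genes stand in several lists, so the lists are not independent of each other. Named genes are the members, 36 fixed partners (33 with values), the highest, the lowest and each called gene of a list, and the genes most like the members by Pearson r of centred log2 CPM. Where a gene falls outside this rule, that is stated. Some genes under this rule are not given. Foxp1 is the check of the labels. Emx1, Pax6, Tbr1, Olig1 and Apoe values serve as checks of tissue or of likeness.

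Replicate numbers 1 and 2 occur in both groups. The difference between replicates 1 and 2 correlated at −0.117 across genes between the groups, so the numbers were not taken to pair the libraries. Alternatives were DESeq2 as the test, DESeq2's size factors, library totals alone, filterByExpr, a mean of at least 1 CPM, the replicate block, leaving out each library in turn, another transcript length and another filter of likeness.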

Additional observations from a re-analysis of the deposited data

Results flagged for a closer look

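Of 59 genes and list sums whose 4 controls were examined for 1 library far from the others, 3 stood out, and chance alone would give about 1 in 20. Kcnj11, the pore of the neuronal ATP-sensitive potassium channel, had a gap of 0.843 of the controls' range on the log2 CPM scale, with control 4 (4.99 CPM) below the other 3 controls (9.23 to 10.3 CPM). Pdgfd had 0.845, with control 4 (1.64 CPM) above the others (0.710 to 0.809 CPM). Actb had 0.847, with control 4 (1403 CPM) below the others (1782 to 1860 CPM). Control 4 was the library apart in each of the 3, and no member was among them. The cause was not tested.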

How the results depend on the processing

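The edgeR test called 26 genes over the whole table, all higher, and 0 of 8 members (4 of 8 at an unadjusted p under 0.05). DESeq2 called 507 genes and 1 member, Rgs5. Leaving out 1 library gave 2 to 96 genes: 6 without control 1, 2 without control 2, 20 without control 3, 96 without control 4, 9 without Foxp1cKO 1 and 3 without Foxp1cKO 2, and 0 members each time. With the replicate block 0 genes were called, 3027 had an unadjusted p under 0.05, and the members' median log2 fold change was 0.38. With the numbers crossed, an alternative added after the data were examined, 1301 genes and 3 members were called. In both block fits controls 3 and 4 have no counterpart, so only replicates 1 and 2 of each group bear on the comparison. The numbers were not taken to pair the libraries, so neither count is read as a result. The other normalizations and filters gave 24 to 26 genes and 0 members.

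The members' median was 0.38 to 0.57 with 1 library left out. Of the members, 7 kept their sign in 12 of 12 alternatives. Anpep ran from −0.35 without control 3 to 0.049 without Foxp1cKO 1 and 0.32 without control 1, and Kcnj8 was 0.12 without Foxp1cKO 2. Of the other genes, Tbx18 ran from −0.74 to 0.15 (without control 1), Pdgfra from −0.66 to 0.038 (without Foxp1cKO 1) and 0.064 (without control 1), Tek from −0.84 to 0.0054 (without Foxp1cKO 1), and Vtn from −0.022 (without Foxp1cKO 2) to 0.98. Angpt2 and Flt1 lost their calls without control 1, control 2, either library labelled Foxp1cKO, and under the replicate block. The cause was not tested. Under the longest transcript in place of the union of exons, 6 of 8 members kept their rank by level per length.

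Only 2 libraries carry the Foxp1cKO label. Acta2 spanned 16.6 times among the controls and 2.01 times between those 2 libraries, and it rested on 12 reads in controls 2 and 3.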
